A study of Mus musculus with 10 samples.

Results

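The genes described here encode splicing factors and RNA helicases of the mouse kidney. A probe set, the unit of these arrays, is a group of short probes that reads 1 stretch of a transcript. Members were the probe sets whose single annotated symbol starts with Srsf, Hnrnp, Sf3a, Sf3b, Snrp, Prpf, Luc7l, Ddx or Dhx, whatever their values. They numbered 228 of 22626 probe sets on the array after controls were set aside, and stood for 96 genes. A filter on dim signals left 194 of the 228, for 91 genes, among 13575 probe sets tested. The dimmest member inside the filter had a mean log2 signal of 5.30, and the brightest outside it 5.25. The genes Ddx25, Ddx4, Ddx60, Dhx58 and Snrpn had no probe set inside. No member probe set carries the symbols Srsf7, Ddx58, Ddx3y or Snrnp70, which are not analysed here.

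Splicing removes introns from a pre-mRNA on the spliceosome, which is built anew on each intron from small nuclear ribonucleoproteins. SR proteins (Srsf genes) and hnRNPs bind the transcript and help decide which splice sites are used. RNA helicases of the DEAD-box (Ddx) and DEAH-box (Dhx) families remodel RNA and its protein complexes in splicing, export, translation and decay. Many SR protein and hnRNP genes regulate their own transcripts by alternative splicing, so that probe sets of one gene can read different transcript forms.

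All mice were C57/BLACK6 males, 7 weeks old and of about 20 g, and their protocols describe injections of 4-thiouridine (s4U, 200 µM) with tritium-labelled cytidine. Contralateral kidneys were the unclamped kidneys of mice whose left renal vessels had been clamped for 45 min under ether, with s4U given 1 h and 2 h after reperfusion and the kidney taken at 3 h. Normal kidneys came from mice without an operation, with s4U at 0 h and 1 h and the kidney taken at 2 h. No sham operation is described, so operation, anaesthesia and time points cannot be told apart from the kidney group. The protocols name water as the control for s4U. The titles call every kidney, normal or contralateral, untreated and do not say whether any array used water. From each kidney group there were 3 preparations: newly transcribed RNA, which is RNA enriched by its s4U (1 array), amplified total RNA (2 arrays) and total RNA (2 arrays). Arrays of 1 group are titled as biological replicates, and no animal is named. The design asks how RNA levels and transcription change in the contralateral kidney 3 h after ischemia of the other one.

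Arrays differed in brightness and in 3' bias. The contralateral newly transcribed array had a median signal of 18.6 as deposited, the normal one 70.3, and the others 26.6 to 59.7. The ratio of the 3' to the 5' control probe set of Gapdh was 68.9 on the contralateral newly transcribed array against 12.7 on the normal one. It was 4.39 and 6.23 against 4.21 and 5.29 in amplified total RNA, and 1.03 and 1.12 against 0.938 and 0.972 in total RNA. Of the kidney markers on the array, 7 of 7 for proximal tubule, 5 of 5 for thick limb and distal tubule and 5 of 5 for collecting duct passed the filter on dim signals, as did 7 of 10 leukocyte and 6 of 6 endothelial markers. No marker of leukocytes, red blood cells, endothelium, or adipose, muscle and adrenal tissue was called between kidney groups in amplified or in total RNA, whereas 1 proximal tubule and 1 collecting duct marker fell in amplified RNA. Between the newly transcribed arrays the 7 tested leukocyte markers had a median difference of 0.66 (log2). It was 1.12 for the 2 tested markers of red blood cells and 1.47 for the 3 of adipose, muscle and adrenal tissue. For collecting duct markers it was 0.36. Medians were negative for endothelium (-0.75), thick limb and distal tubule (-0.58), proximal tubule (-0.29) and podocytes (-0.29). As deposited and not normalized, the summed leukocyte signal was 1293.2 against 1885.7 on the newly transcribed arrays. It was 1453.7 and 2006.0 against 1500.2 and 1566.3 in amplified RNA, and 993.1 and 1060.3 against 1488.1 and 1670.0 in total RNA. These sums carry the brightness of each array, whose median in total RNA was 40.4 and 41.6 against 55.85 and 59.7. No direction for leukocytes follows from them. The part of brightness, 3' bias or other cell types in the differences given next was not tested.

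The promoters show what the members share outside the arrays. RefSeq (GRCm38.p6) listed 115 promoters for 86 of the 96 genes. In the 250 bases before the start, on either strand, the ETS motif CCGGAAG occurred in 29.6% of member promoters, against 13.3% of the 8751 promoters of all genes with a tested probe set and 6.91% of all 32851. The NRF1 motif occurred in 14.8% of member promoters, against 8.14% of those of tested genes. Shares for CREB (TGACGTCA) were 4.35% against 2.4%, for the CCAAT box (CCAATNNG) 19.1% against 16.5%, for E2F (TTTCCCGC) 4.35% against 1.7% and for YY1 (AAGATGGCG) 0% against 1.18%. Some genes count with several promoters, the motifs can overlap one another, and a match is a description of letters only. Of the 12 Srsf promoters 41.7% held the ETS motif and 33.3% the NRF1 motif.

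The 120 bases before the start are given for 4 genes among those with the largest lower signal on the contralateral newly transcribed array, to show how alike or unlike their promoters are. Capitals mark the motif matches, the ETS motif as CCGGAAG or its reverse complement CTTCCGG. Srsf5 lies on the plus strand at chr12:80945379-80945498, Srsf1 on the plus strand at chr11:88047253-88047372, Dhx36 on the minus strand at chr3:62506989-62507108 and Ddx3x on the plus strand at chrX:13280902-13281021.
Srsf5: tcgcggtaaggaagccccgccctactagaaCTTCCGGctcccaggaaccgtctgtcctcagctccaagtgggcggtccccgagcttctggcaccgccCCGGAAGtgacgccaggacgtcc
Srsf1: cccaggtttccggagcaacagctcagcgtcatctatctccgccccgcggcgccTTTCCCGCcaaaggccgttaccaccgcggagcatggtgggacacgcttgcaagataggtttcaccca
Dhx36: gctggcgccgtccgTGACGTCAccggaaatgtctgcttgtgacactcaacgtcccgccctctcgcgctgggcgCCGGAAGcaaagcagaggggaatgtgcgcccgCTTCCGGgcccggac
Ddx3x: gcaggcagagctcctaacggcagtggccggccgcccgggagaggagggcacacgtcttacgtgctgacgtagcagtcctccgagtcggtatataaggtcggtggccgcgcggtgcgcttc
Srsf5 and Dhx36 each held the ETS motif at 2 places and Dhx36 also the CREB motif, Srsf1 held the E2F motif, and Ddx3x held none of the 6 motifs in this window.

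A few patterns stood out among the members. On the contralateral newly transcribed array SR protein probe sets were low as a family. In amplified total RNA more member probe sets were lower than higher in contralateral kidneys, led by probe sets of Ddx6, Sf3b1 and Luc7l3. Each of these genes also had a probe set that was not called lower, and the brightest of Sf3b1 was called higher. In total RNA a few were higher, among them 2 probe sets of Ddx6 that were lower in amplified RNA. Each is given with its counts here and by role after that. In whole kidneys, fewer cells of a type and less RNA per cell cannot be told apart.

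Between the newly transcribed arrays, 1 against 1 and with no test, 61 of 194 member probe sets (31.4%) were at least 2-fold lower and 17 (8.76%) at least 2-fold higher on the contralateral array. Over all 13575 probe sets 18.5% were lower and 14.4% higher, together 32.8%. The members' median log2 difference was -0.51, against 0.00 for all tested probe sets. When arrays were scaled to equal medians instead, the median of all probe sets was itself -0.21 and that of the members -0.74.

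In amplified total RNA 23 member probe sets, of 18 genes, were lower and 7, of 7 genes, higher in contralateral kidneys, 15.5% of 194, with a median of -0.08. Of all tested probe sets 6.22% were lower and 4.1% higher, together 10.3%, and their median was 0.02. The count of 30 was 12 without the first normal amplified array and 10 without the second, so the number of calls depended on each of them.

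In total RNA 6 member probe sets, of 4 genes, were higher and 0 lower, with a median of 0.04. The Luc7l2 probe set among them passed the filter through its total RNA values, where it was high. Of all tested probe sets 1.58% were higher and 0.331% lower, together 1.91% (median -0.01). Kidney groups that merely did not overlap were common on the array, in total RNA 22.4% higher and 24.2% lower, and in amplified RNA 29.5% higher and 25.5% lower. By limma at an unadjusted p under 0.05, 31 members were higher and 4 lower. These were 35 of 194, beside 2014 of all 13575 probe sets in either direction. The 6 calls became 0 without normal total replicate 2, 1 without contralateral total replicate 1, and 3 without contralateral total replicate 2 or either normal amplified array. These p-values measure the spread between these arrays, and 2 arrays per group limit the precision.

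The contralateral effect itself differed between amplified and total RNA for 16 member probe sets of 12 genes, and in each it was lower in amplified RNA. Of all tested probe sets 3.82% passed in this direction and 0.641% in the other, together 4.46%. In the other direction 0 members passed by limma (12 at an unadjusted p under 0.05). In either direction 48 of 194 members were under that unadjusted cut, beside 2371 of all 13575 probe sets. The count of 16 was 8 without normal amplified replicate 1, of which 1 ran in the other direction, and 10 without normal total replicate 2 or contralateral total replicate 1. Over all preparations together, limma's additive fit called 0 members (11 higher and 12 lower at an unadjusted p under 0.05), against 0.383% of all probe sets higher and 0.0589% lower, together 0.442%. Under the unadjusted cut were 23 of 194 members, beside 1984 of all 13575 probe sets. Without either of the newly transcribed arrays the additive fit called 2 members, both higher. Closest in that fit were Dhx38, a helicase of the second splicing step (0.84 ± 0.18, adjusted p = 0.0939), Srsf4 (0.49 ± 0.11, adjusted p = 0.105) and a probe set of Luc7l2 (-0.80 ± 0.22, adjusted p = 0.169), which did not pass.

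**Figure D1:**
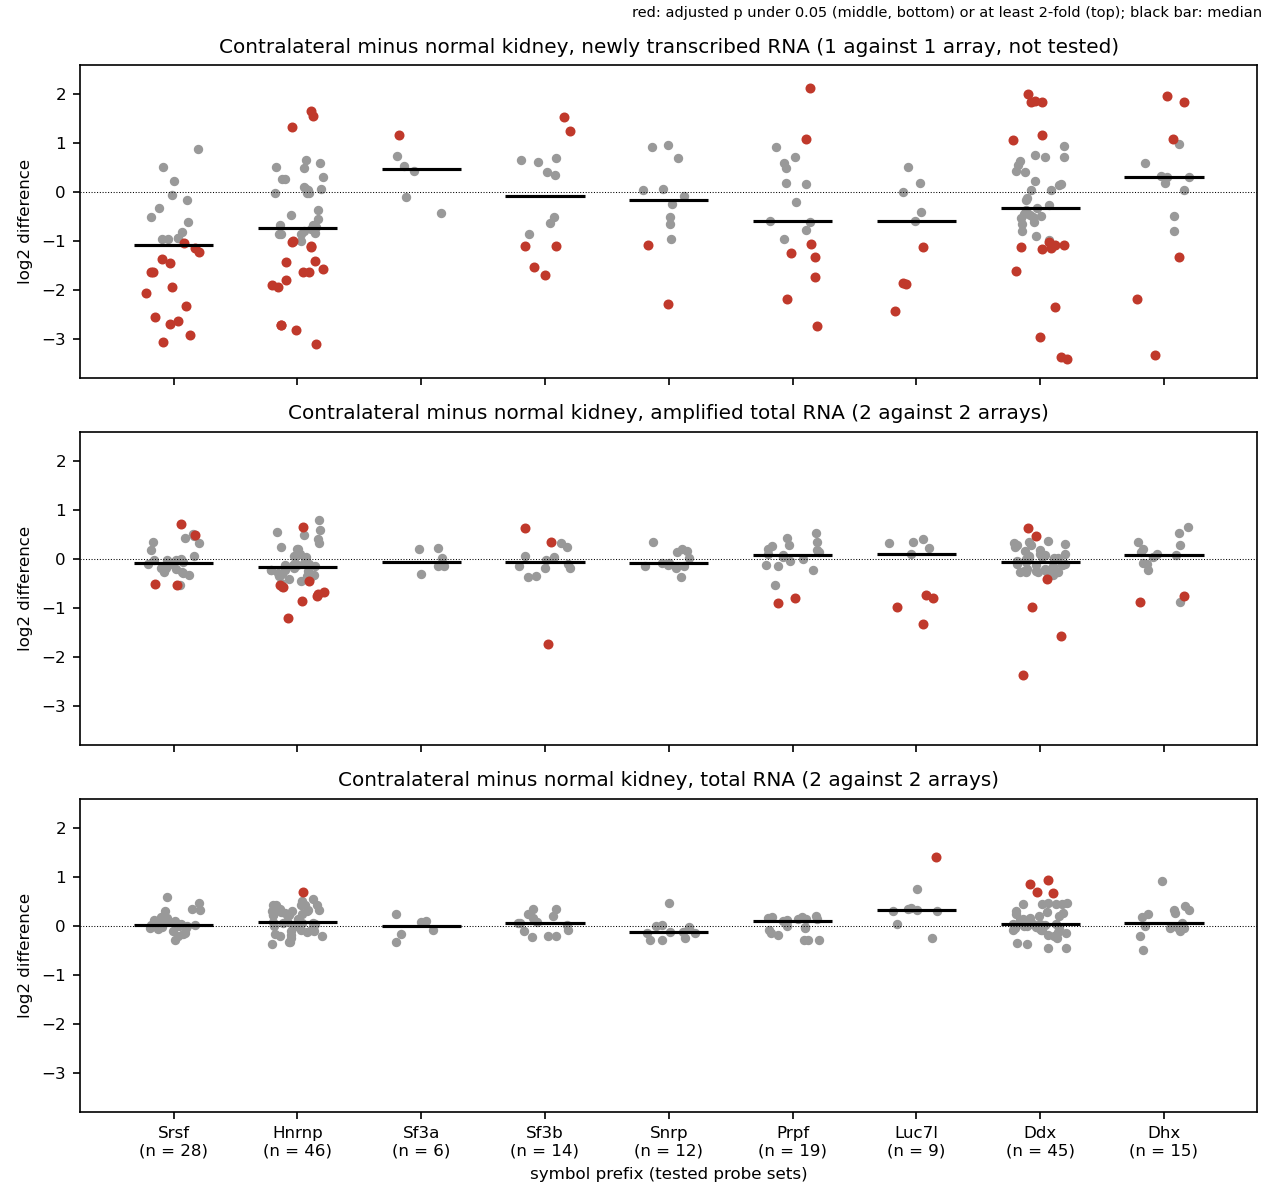
Contralateral minus normal log2 difference of the 194 tested member probe sets (points) by symbol prefix, in newly transcribed (top), amplified total (middle) and total RNA (bottom), with medians as black bars. Red points passed an adjusted p of 0.05 in the lower panels or differed at least 2-fold in the top one, where the Srsf median is -1.09.

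The SR proteins had the lowest family median on the newly transcribed arrays. Of 28 Srsf probe sets, for 9 genes, 15 were at least 2-fold lower on the contralateral array and 0 at least 2-fold higher (53.6% lower, against 18.5% of all probe sets). Their median was -1.09, and -1.42 with equal array medians. Srsf5, the brightest SR protein probe set, stood at 7.79 (normalized log2 signal) on the contralateral newly transcribed array against 10.86 on the normal one. In amplified RNA it measured 10.01 and 10.16 in contralateral kidneys against 10.15 and 10.26 in normal ones, and in total RNA 9.51 and 9.69 against 9.58 and 9.57. The low Srsf5 value thus belonged to 1 array, while the ranges overlapped in the other preparations.

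Srsf1, the founding SR protein, was read by 6 probe sets. Probe set 1453722_s_at had 6.82 on the contralateral newly transcribed array against 9.74 on the normal one, and 1430982_at had 5.48 against 8.13. The other 4 lay lower too, with log2 differences of -0.32 to -1.63, so that the probe sets of Srsf1 shared a direction but not a size. One of them, 1428099_a_at, also fell in amplified RNA, with 7.93 and 8.06 in contralateral against 8.51 and 8.55 in normal kidneys (-0.53 ± 0.13, adjusted p = 0.0203). In total RNA it had 7.66 and 7.68 in contralateral against 7.49 and 7.73 in normal kidneys, which overlapped.

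Srsf2 probe sets disagreed: 1427504_s_at had 6.60 on the contralateral against 9.29 on the normal newly transcribed array, whereas 1427816_at had 6.07 against 5.20. Srsf3, whose protein also takes part in mRNA export, lay lower in each of its 6 probe sets (-0.81 to -2.06). The 4 probe sets of Srsf10, a splicing regulator controlled by its phosphorylation, lay lower (-1.64 to -2.56), as did the 3 of Srsf6 (-0.07 to -1.14). Srsf4 stood apart, with 9.86 on the contralateral newly transcribed array against 9.34 on the normal one. It rose in amplified RNA (9.55 and 9.61 in contralateral against 8.90 and 9.26 in normal kidneys, 0.49 ± 0.13, adjusted p = 0.0338). In total RNA it had 8.73 and 8.74 in contralateral against 8.19 and 8.33 in normal kidneys without overlap, and did not pass (adjusted p = 0.101).

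Srsf11 and Srsf9 were called in amplified RNA, in opposite directions. Srsf11 probe set 1427269_at rose, with 7.37 and 7.40 in contralateral against 6.63 and 6.69 in normal kidneys (0.73 ± 0.14, adjusted p = 0.00861). Srsf9 fell, with 8.54 and 8.78 in contralateral against 9.16 and 9.19 in normal kidneys (-0.51 ± 0.12, adjusted p = 0.021). In total RNA no SR protein probe set passed by limma (3 of 28 at an unadjusted p under 0.05), and the family median was 0.02. Neither kidney group overlapped with the other for Srsf11 or Srsf9 in amplified RNA.

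**Figure D2:**
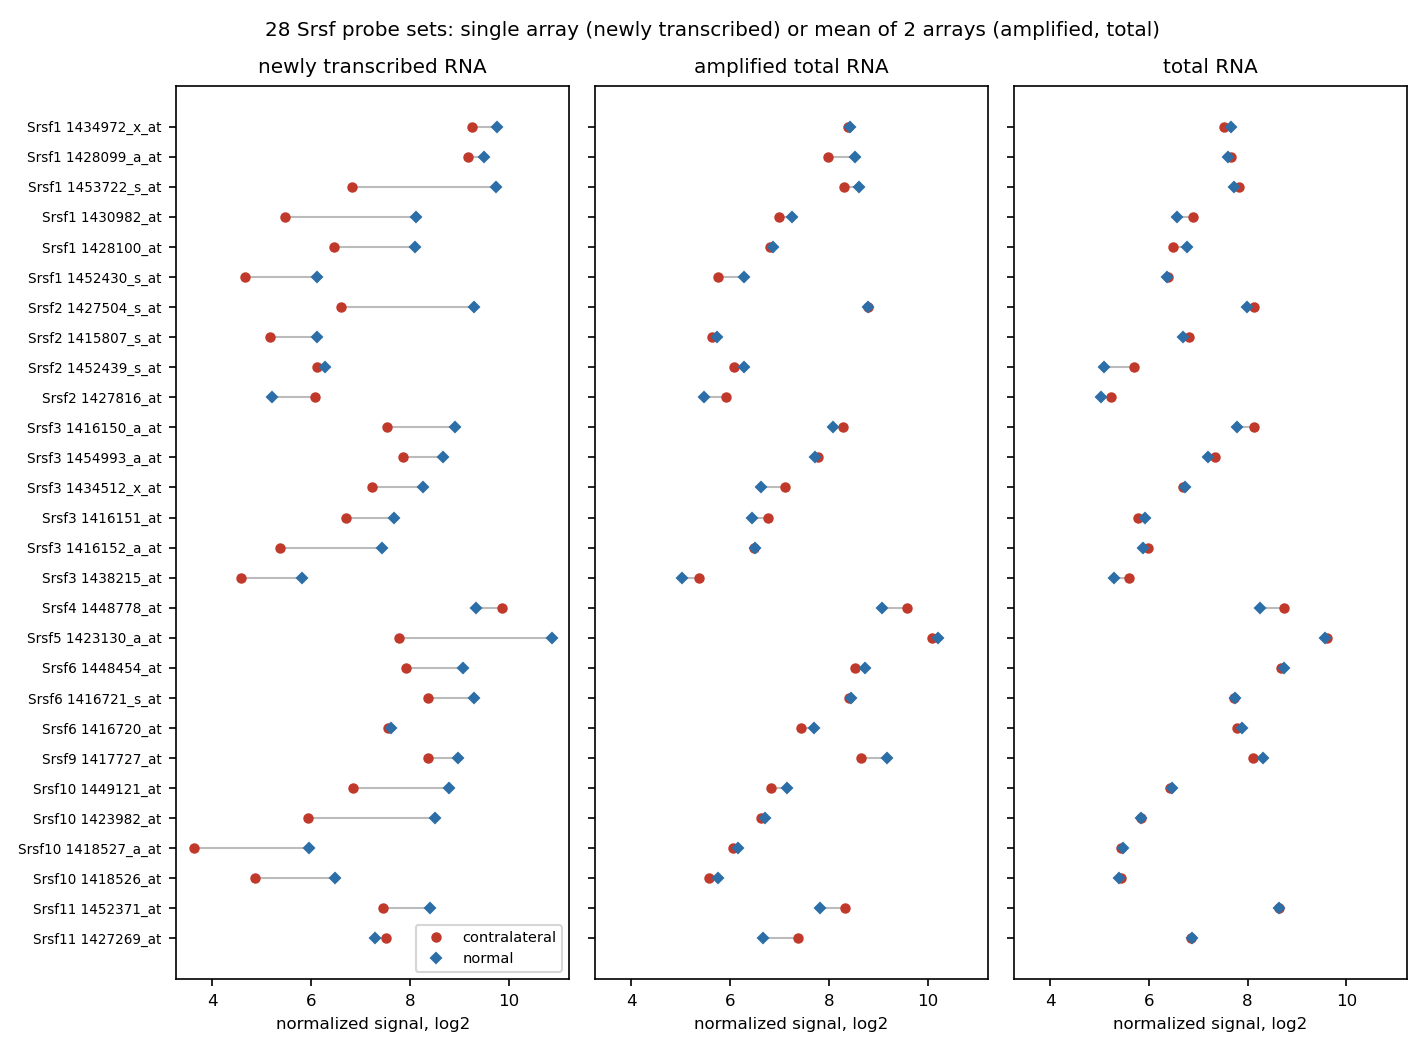
Normalized log2 signal of the 28 Srsf probe sets in contralateral (red circles) and normal kidneys (blue diamonds), on single newly transcribed arrays (left) and as means of 2 arrays in amplified total (middle) and total RNA (right). Contralateral points lie left of normal ones for most probe sets on the newly transcribed arrays (Srsf5 at 7.79 against 10.86) and close to them in the other preparations.

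Set against amplified RNA of the same kidney group, the SR protein probe sets had a median of -0.41 on the contralateral newly transcribed array and of 0.75 on the normal one. The medians of all members were -0.04 and 0.35, and those of all tested probe sets -0.02 and -0.03. The normal array alone therefore held a higher SR protein signal in newly transcribed than in amplified RNA. With 1 newly transcribed array per kidney this difference was not tested.

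Among the DEAD-box helicases Ddx6, which represses translation and promotes decapping of mRNA, gave the largest fall in amplified RNA. Probe set 1424598_at had 5.85 on the contralateral newly transcribed array against 8.19 on the normal one. In amplified RNA it had 4.82 and 5.17 in contralateral against 7.24 and 7.51 in normal kidneys, a fall of -2.38 ± 0.16 (adjusted p = 1.52e-05). In total RNA it had 8.60 and 8.78 in contralateral against 7.69 and 7.78 in normal kidneys, a rise of 0.95 ± 0.16 (adjusted p = 0.0172). The kidney groups did not overlap in either preparation and were in opposite order, and the change of direction passed its own test (-3.33 ± 0.23, adjusted p = 2.58e-05).

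A second Ddx6 probe set, 1439122_at, followed the same order. It had 4.69 against 7.66 on the newly transcribed arrays and fell in amplified RNA, with 4.52 and 4.54 in contralateral against 6.02 and 6.20 in normal kidneys (-1.58 ± 0.16, adjusted p = 0.000212). It rose in total RNA, with 8.43 and 8.74 in contralateral against 7.65 and 7.80 in normal kidneys (0.86 ± 0.16, adjusted p = 0.0264). The third, 1434697_at, rose in total RNA as well (7.51 and 7.58 in contralateral against 6.78 and 6.94 in normal kidneys, 0.69 ± 0.12, adjusted p = 0.0176). In amplified RNA it had 8.20 and 8.25 in contralateral against 8.45 and 8.53 in normal kidneys and did not pass (-0.27 ± 0.12, adjusted p = 0.193). For 1439122_at the deposited contralateral amplified signals were 7.3 and 12.2. The size of its fall ran from -2.26 to -0.82 over the alternatives, and the call was kept in 22 of 22. Ddx6 was thus higher in total RNA by all 3 probe sets and lower in amplified RNA by 2 of them, whose contralateral signals there were low.

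The probe sets of Ddx6 also differed between the preparations. Over both kidneys 1439122_at (-2.84 ± 0.55, adjusted p = 0.00282) and 1424598_at (-2.02 ± 0.59, adjusted p = 0.0212) were lower in amplified than in unamplified total RNA, and 1434697_at was higher (1.16 ± 0.22, adjusted p = 0.00249). Within kidney groups, amplified minus total RNA was -4.06 in contralateral and -1.62 in normal kidneys for 1439122_at, -3.69 and -0.36 for 1424598_at, and 0.68 and 1.64 for 1434697_at, so the averages include the contralateral difference. RefSeq's promoter table has no Ddx6 entry, so none is shown.

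**Figure D3:**
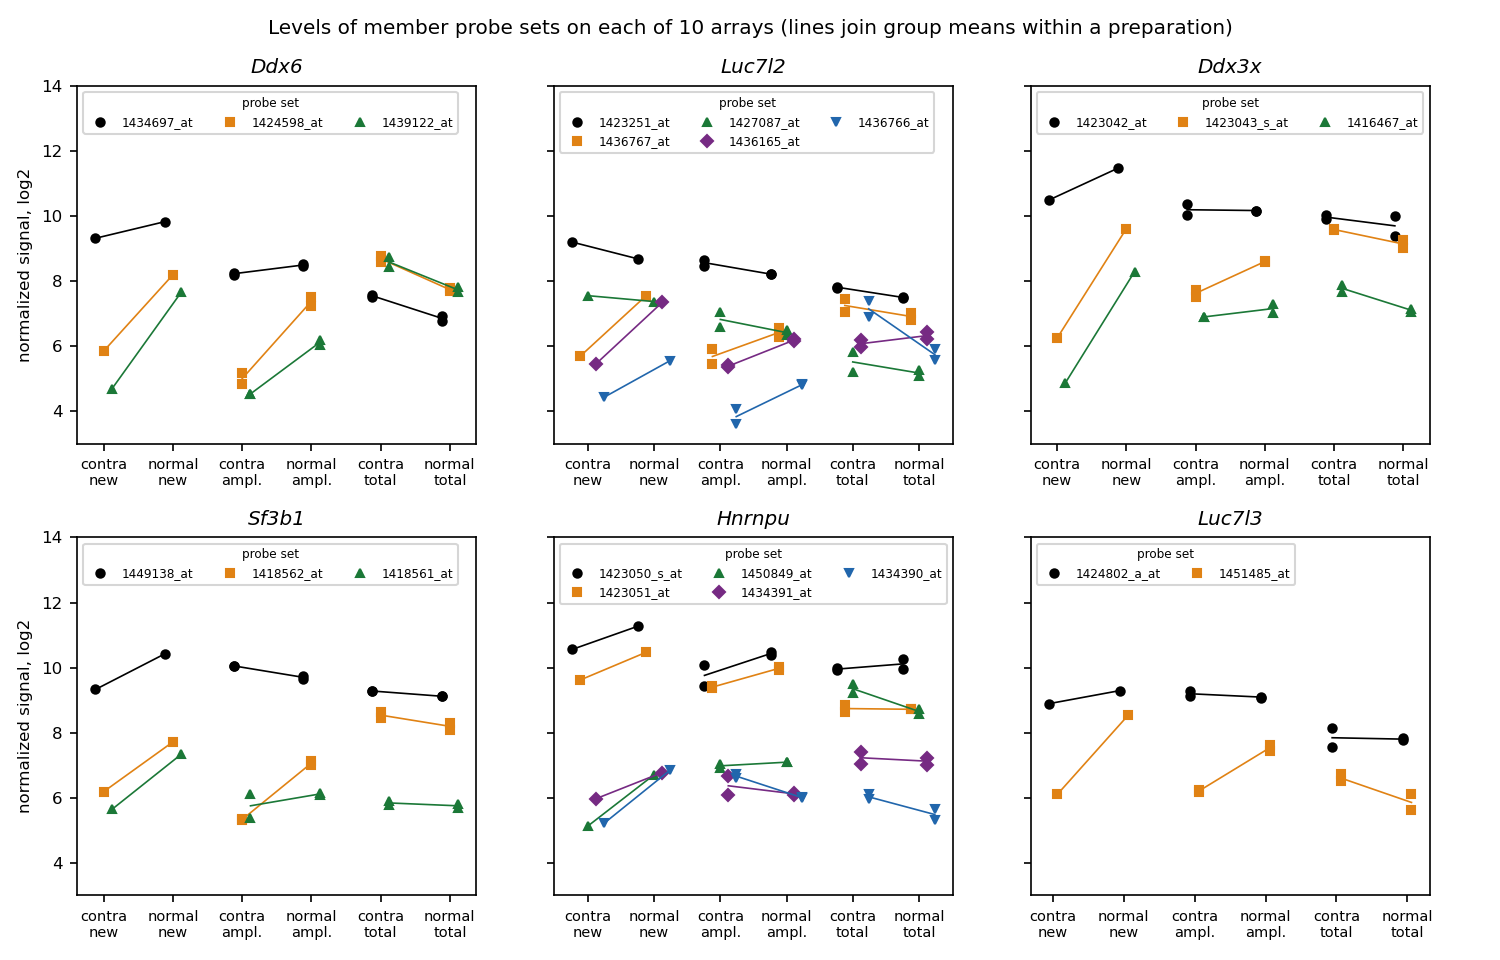
Normalized log2 signal on each of the 10 arrays for the tested probe sets of Ddx6, Luc7l2, Ddx3x, Sf3b1, Hnrnpu and Luc7l3, with contralateral left of normal kidneys in newly transcribed (new), amplified total (ampl.) and total RNA, and lines joining group means. Ddx6 probe set 1424598_at, at 4.82 and 5.17 against 7.24 and 7.51 in amplified RNA and at 8.60 and 8.78 against 7.69 and 7.78 in total RNA, changes its order between preparations.

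Ddx3x, an X-linked helicase of translation initiation, held the brightest Ddx probe set. That probe set, 1423042_at, had 10.49 against 11.47 on the newly transcribed arrays and passed no contralateral test. Probe set 1423043_s_at had 6.24 on the contralateral newly transcribed array against 9.61 on the normal one, and 1416467_at had 4.86 against 8.29 (-3.37 and -3.42). The deposited signals behind the contralateral values were 27.1 and 8.2, low enough for the offset to bear on the sizes (-3.58 and -4.06 with an offset of 1, and -2.83 and -2.38 with 50). In amplified RNA 1423043_s_at fell, with 7.51 and 7.73 in contralateral against 8.58 and 8.61 in normal kidneys (-0.98 ± 0.13, adjusted p = 0.000767). In total RNA 1416467_at rose, with 7.67 and 7.88 in contralateral against 7.05 and 7.15 in normal kidneys (0.67 ± 0.15, adjusted p = 0.0485). This rise was fragile and kept its call in only 8 of 22 alternatives. For 1423043_s_at and 1416467_at, the contralateral effect was lower in amplified than in total RNA, by -1.42 ± 0.18 (adjusted p = 0.00116) and -0.93 ± 0.21 (adjusted p = 0.0308).

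The paired helicases Ddx5 and Ddx17, which act in transcription, splicing and microRNA processing, moved less. Of 6 Ddx5 probe sets 1 was called, 1423645_a_at, which fell in amplified RNA with 8.95 and 9.19 in contralateral against 9.48 and 9.49 in normal kidneys (-0.42 ± 0.11, adjusted p = 0.041). On the newly transcribed arrays the Ddx5 probe sets ran from -1.09 to 1.17, with 1 at least 2-fold lower and 2 at least 2-fold higher. Neither Ddx17 probe set was called between kidneys. They differed by 0.55 and -0.65 on the newly transcribed arrays, that is in opposite directions for 1 gene.

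Ddx39b, which loads on mRNA in spliceosome assembly and export, and its paralogue Ddx39a were not called between kidneys. On the newly transcribed arrays, 3 Ddx39a probe sets were among the members highest on the contralateral side: 1438168_x_at had 9.11 against 7.10, 1451065_a_at 8.54 against 6.69, and 1455814_x_at 8.98 against 7.14. Another, 1423643_at, had 6.98 against 6.57. The 2 Ddx39b probe sets differed by 0.64 and 0.22. In amplified RNA, probe sets of 2 nucleolar helicases rose in contralateral kidneys, Ddx52 1434608_at (7.53 and 7.64 in contralateral against 6.87 and 7.02 in normal, 0.64 ± 0.15, adjusted p = 0.0193) and Ddx50 (9.69 and 9.78 against 9.18 and 9.33, 0.48 ± 0.13, adjusted p = 0.0373). The other Ddx52 probe set, 1434607_at, differed by only 0.07 there and was not called. Neither Ddx52 1434608_at nor Ddx50 passed in total RNA, where they differed by -0.13 and -0.05.

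The RNA sensors of the helicase families were dim. The 3 Dhx58 probe sets had mean log2 signals of 4.97, 3.83 and 3.82, and Ddx60 had 4.16, all under the filter. The interferon-stimulated genes listed beside them had 20 tested probe sets, of which 10 (50%, against 14.4% of all) were at least 2-fold higher and 0 at least 2-fold lower on the contralateral newly transcribed array. In amplified RNA 1 of these was higher (Gbp2, 0.77 ± 0.16, adjusted p = 0.0113) and 2 lower, both of Rsad2 (-1.48 and -0.70), and in total RNA none passed by limma (3 at an unadjusted p under 0.05).

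Among the DEAH-box helicases Dhx36, which unwinds G-quadruplexes, was low on the contralateral newly transcribed array. Probe set 1424398_at had 3.75 there against 7.08 on the normal array, and 1424397_at had 4.53 against 6.72. The deposited signal of 1424398_at was 0.8 on the contralateral array against 223.8 on the normal one, so the offset sets the size of its difference, which ran from -5.57 to -1.76 over the alternatives. In amplified RNA 1424398_at fell, with 5.21 and 5.47 in contralateral against 6.08 and 6.36 in normal kidneys (-0.88 ± 0.18, adjusted p = 0.0111). In total RNA it had 6.63 and 6.68 in contralateral against 6.19 and 6.29 in normal kidneys, which did not pass, and its effects differed between preparations (-1.30 ± 0.26, adjusted p = 0.0152). The other Dhx36 probe set was not called (0.35 in amplified and -0.21 in total RNA).

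Dhx9, known as RNA helicase A, fell in amplified RNA by its brighter probe set, with 7.73 and 8.03 in contralateral against 8.52 and 8.77 in normal kidneys (-0.77 ± 0.18, adjusted p = 0.02). It had 9.72 against 9.67 on the newly transcribed arrays. Dhx15, which helps to take spliceosomes apart and is the brightest of the family, had 8.78 against 10.10 there by 1416145_at and 9.04 against 8.85 by 1416144_a_at, and was not called. Of Dhx30, a helicase of mitochondrial RNA granules, 2 probe sets were high on the contralateral newly transcribed array, 1438832_x_at with 9.38 against 7.41 and 1438969_x_at with 10.34 against 8.51. Its brighter probe set on the total RNA arrays, 1416140_a_at, had 8.17 against 7.84. The median Dhx difference on those arrays was 0.31, and -0.23 with equal array medians, so the family had no settled direction.

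Probe set design went along with this pattern. Identifiers ending in _x_at mark probe sets with probes that may match other transcripts. On the newly transcribed arrays 10 of 27 such members were at least 2-fold higher and 2 lower on the contralateral array, whereas of the 103 ending in plain _at 5 were higher and 40 lower. Among all tested probe sets the same held, with 42.1% of _x_at probe sets higher and 4.38% lower, against 10.2% and 20.3% of those ending in _at. The high values of Ddx39a, Dhx30 and Ddx54 (9.26 against 7.40 by 1438853_x_at, and 6.76 against 6.89 by 1460396_at) came mostly from such probe sets. Without member probe sets ending in _s_at or _x_at, 53 were at least 2-fold lower and 6 higher.

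The hnRNPs package nascent transcripts and regulate splice sites. Of 46 tested Hnrnp probe sets 16 (34.8%, against 18.5% of all) were at least 2-fold lower and 3 (6.52%, against 14.4%) higher on the contralateral newly transcribed array, with a median of -0.74. In amplified RNA 8 fell and 1 rose, together 19.6% against 10.3% of all. In total RNA 1 rose, 2.17% against 1.91% of all. Hnrnpl, which binds CA-rich RNA, had 4.67 against 7.39 on the newly transcribed arrays. It fell in amplified RNA, with 6.15 and 6.47 in contralateral against 7.42 and 7.62 in normal kidneys (-1.21 ± 0.16, adjusted p = 0.000834). In total RNA its values were 7.56 and 7.63 in contralateral against 7.29 and 7.46 in normal kidneys, which did not pass, and the effects differed between the preparations (-1.42 ± 0.23, adjusted p = 0.00444).

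Hnrnpu, a scaffold attachment protein, was called in both directions. In amplified RNA 1434390_at rose, with 6.59 and 6.73 in contralateral against 5.97 and 6.01 in normal kidneys (0.67 ± 0.18, adjusted p = 0.0418), while 1423051_at fell, with 9.38 and 9.42 against 9.91 and 10.03 (-0.57 ± 0.11, adjusted p = 0.00703). Probe set 1423050_s_at fell too (-0.67 ± 0.18, adjusted p = 0.0354). In total RNA another, 1450849_at, rose, with 9.21 and 9.48 in contralateral against 8.57 and 8.73 in normal kidneys (0.70 ± 0.14, adjusted p = 0.0317). Hnrnpu and Sf3b1 were the 2 genes of 52 with several tested probe sets that had opposite calls in amplified RNA, 3.85% against 0.979% of 2861 genes on the array. In both genes the rise was fragile: with 1 array left out at a time, Hnrnpu 1434390_at kept its call in 4 fits of 10 (adjusted p up to 0.193) and Sf3b1 1449138_at in 2 of 10 (up to 0.252). On the newly transcribed arrays all 5 Hnrnpu probe sets lay lower (-0.72 to -1.64).

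Hnrnpk, a poly-C binding protein, fell by 1448176_a_at in amplified RNA, with 8.52 and 8.55 in contralateral against 9.36 and 9.42 in normal kidneys (-0.85 ± 0.12, adjusted p = 0.00141). Its 3 other probe sets were not called (-0.24 to 0.21). Other amplified falls were Hnrnpr (-0.76 ± 0.21), Hnrnpab 1426114_at (-0.72 ± 0.16), Hnrnpm (-0.53 ± 0.14) and Hnrnpa2b1 (-0.46 ± 0.12), with adjusted p from 0.0149 to 0.0446. For Hnrnpk, Hnrnpr and Hnrnpab the contralateral effect was also lower in amplified than in total RNA, by -0.91, -1.18 and -1.15.

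Hnrnpf, which binds G-tracts, was among the lowest on the contralateral newly transcribed array by 1423382_a_at (6.51 against 9.62) and 1450963_at (6.56 against 9.39), while 1437099_x_at had 9.54 against 8.21. Hnrnpab 1426114_at was high there, with 8.11 against 6.45, and 1448144_at low, with 6.13 against 7.78. With Ddx5 and Sf3b2 these were the 4 member genes with probe sets 2-fold apart in both directions, 7.69% of 52 against 2.76% of all such genes. Some probe sets of the core hnRNPs, though not all, had close values on both arrays. Hnrnpc 1460240_a_at had 11.48 against 11.21 there, Hnrnpa1 1436549_a_at 9.62 against 9.64, and Hnrnpdl 1424251_a_at, the brightest of all members, 11.28 against 11.30. Neither Hnrnpc, Hnrnpa1 nor Hnrnpdl was called between kidneys, although 1455305_x_at of Hnrnpa1, as bright on average as 1436549_a_at, had 7.79 against 9.70 on the newly transcribed arrays.

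Sf3b1, the largest subunit of the SF3b complex that recognises the branch point, had 1 of the strongest falls. Probe set 1418562_at had 6.18 on the contralateral newly transcribed array against 7.71 on the normal one. In amplified RNA it had 5.30 and 5.35 in contralateral against 7.01 and 7.11 in normal kidneys (-1.74 ± 0.14, adjusted p = 5.21e-05). In total RNA it had 8.43 and 8.64 in contralateral against 8.07 and 8.31 in normal kidneys and did not pass, and the effects differed (-2.08 ± 0.21, adjusted p = 0.000274). The brightest Sf3b1 probe set, 1449138_at, went the other way in amplified RNA, with 10.05 on both contralateral arrays against 9.65 and 9.74 in normal kidneys (0.35 ± 0.09, adjusted p = 0.039). The third, 1418561_at, was not called (-0.36). No direction for Sf3b1 as a gene follows from these probe sets.

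Of the other subunits, Sf3b4 rose in amplified RNA by 1 probe set, 1436784_x_at (7.44 and 7.79 in contralateral against 6.92 and 7.02 in normal kidneys, 0.64 ± 0.18, adjusted p = 0.0445). This call was lost in 7 of 21 alternatives. The brighter Sf3b4 probe set, 1424619_at, lay lower there (means of 7.95 against 8.30, -0.35) and was not called, so the gene has no settled direction. Sf3b2 was read in both directions on the newly transcribed arrays, from -1.11 by 1456352_a_at to 1.53 by 1438637_x_at. No Sf3a probe set was called between kidneys, and the brightest, 1455546_s_at of Sf3a2, had 10.50 against 9.34 on the newly transcribed arrays. Snrp genes, which encode Sm and other core particle proteins, had 0 calls among 12 in amplified and in total RNA by limma (0 and 1 at an unadjusted p under 0.05). Snrpe, the brightest, measured 9.36 against 9.29 on the newly transcribed arrays, and its values on all 10 arrays ran from 9.29 to 9.75.

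Of the Prpf genes only Prpf19, a ubiquitin ligase of the active spliceosome, was called between kidneys. Probe set 1449635_at had 9.29 against 8.21 on the newly transcribed arrays. In amplified RNA it fell, with 8.21 and 8.36 in contralateral against 9.11 and 9.28 in normal kidneys (-0.91 ± 0.12, adjusted p = 0.000671), and 1419839_x_at fell by 0.80 ± 0.12 (adjusted p = 0.00221). In total RNA 1449635_at had 8.52 and 8.55 in contralateral against 8.60 and 8.64 in normal kidneys, and both probe sets' effects differed between preparations (-0.82 and -0.77). Prpf19 was high on the contralateral newly transcribed array and low in contralateral amplified RNA, unlike Ddx6 or Hnrnpl.

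Prpf8, the core U5 protein at the heart of the spliceosome, was not called, with 6.93 against 7.54 on the newly transcribed arrays, 8.13 and 8.25 against 8.10 and 8.12 in amplified RNA, and 9.05 and 9.08 against 9.34 and 9.38 in total RNA. Prpf6, which bridges particles of the tri-snRNP, had the largest higher difference of all members by 1454789_x_at (9.04 against 6.92, 2.12 on the log2 scale). Its brighter probe set 1424036_at had 9.41 against 9.26 on the same arrays.

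The Luc7l genes encode proteins that join the U1 particle at the start of the intron. Luc7l2 probe set 1436766_at had 4.42 on the contralateral newly transcribed array against 5.55 on the normal one. It fell in amplified RNA, with 3.60 and 4.05 in contralateral against 4.81 and 4.82 in normal kidneys (-0.99 ± 0.25, adjusted p = 0.0281). It rose in total RNA, with 6.91 and 7.38 in contralateral against 5.57 and 5.89 in normal kidneys (1.41 ± 0.25, adjusted p = 0.0183), the largest rise among members there. The difference of the effects passed (-2.40 ± 0.35, adjusted p = 0.00285). The deposited amplified signals were only 2.9 and 0.4 in contralateral against 14.9 and 16.5 in normal kidneys. The probe set passed the filter (mean 5.30 against 5.27) through its total RNA values. Its rise in total RNA and the difference of the effects draw on those same values, so their p-values lend no independent support. The amplified fall lost its call in 7 of 20 alternatives, and an opposite direction in amplified RNA is not established for Luc7l2.

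Of the other Luc7l2 probe sets, 1436165_at (-0.81 ± 0.17, adjusted p = 0.0123) and 1436767_at (-0.73 ± 0.21, adjusted p = 0.0463) also fell in amplified RNA, while the brightest, 1423251_at, differed by 0.35 there and 0.32 in total RNA and was not called. Luc7l3 1451485_at had 6.09 against 8.53 on the newly transcribed arrays. It fell in amplified RNA, with 6.16 and 6.24 in contralateral against 7.44 and 7.62 in normal kidneys (-1.33 ± 0.18, adjusted p = 0.00111). In total RNA it had 6.49 and 6.71 in contralateral against 5.60 and 6.09 in normal kidneys (0.75 ± 0.18, adjusted p = 0.0684), and the effects differed by -2.08 ± 0.26 (adjusted p = 0.00108). The brightest probe set of the family, Luc7l3 1424802_a_at, differed by 0.10 in amplified and 0.04 in total RNA.

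Of the 6 members that rose in total RNA, 3 fell in amplified RNA, 2 of them probe sets of Ddx6 and 1 of Luc7l2, and 0 rose. The Luc7l2 probe set had amplified signals near 0 and passed the filter through its total RNA values, as given above. Over the whole array 214 were higher in total RNA, and 41 of those (19.2%, or 0.302% of all tested) were lower in amplified RNA. Of the 23 members lower in amplified RNA 13 were at least 2-fold lower and 2 at least 2-fold higher on the contralateral newly transcribed array. For all 844 probe sets called lower in amplified RNA the 2-fold lower share was 49.5%. The preparations share no arrays, but 1 estimate of each probe set's spread serves both tests.

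**Figure D4:**
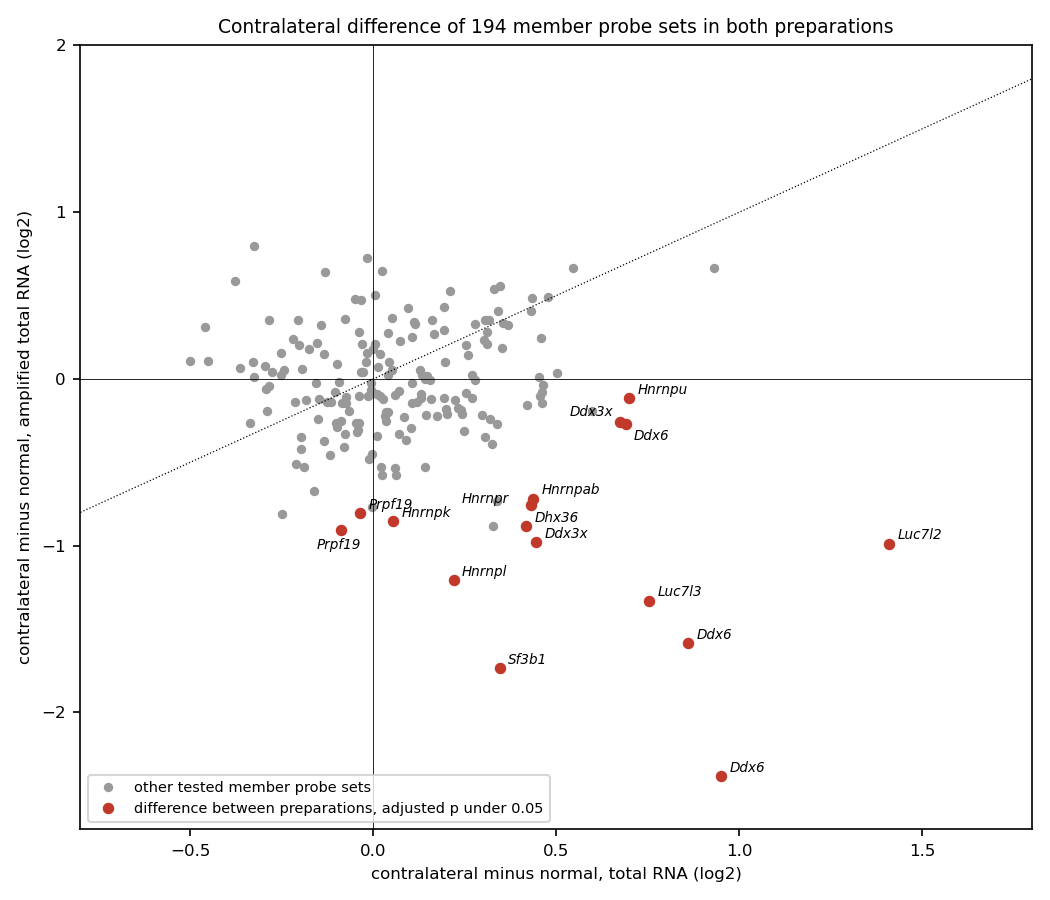
Contralateral minus normal log2 difference of each of the 194 member probe sets in amplified total RNA (y axis) and in total RNA (x axis), with the dotted line marking equal differences. Red points are the 16 whose effect differed between preparations, all of them under the line, from Ddx6 (-2.38 against 0.95) to Prpf19.

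The preparations were also compared with each other over both kidneys. In amplified against unamplified total RNA 66 member probe sets were higher and 22 lower, with a median of 0.40, against 20.7% higher and 17.6% lower of all probe sets (38.4% in all) and a median of 0.04. The count of 88 became 137 when the contralateral newly transcribed array was left out, and 136 when the normal one was. Hnrnpdl 1449039_a_at was higher by 2.25 ± 0.25, Hnrnpm by 2.02 ± 0.18, the kinase gene Prpf4b by 1.68 ± 0.44 and 1.47 ± 0.15, Hnrnph3 by 1.58 ± 0.14, Snrpa1 of the U2 particle by 1.56 ± 0.21, Prpf6 1454789_x_at by 1.46 ± 0.30 and Hnrnpa1 1436549_a_at by 1.34 ± 0.15. Lower besides the Ddx6 probe sets were the Sm protein gene Snrpg (-2.21 ± 0.16), Sf3b1 1418562_at (-2.17 ± 0.37), Luc7l2 1436766_at (-2.12 ± 0.45), Hnrnpab 1426114_at (-2.02 ± 0.34), Sf3b5 (-1.98 ± 0.16) and Hnrnpu 1450849_at (-1.97 ± 0.32). For the probe sets whose contralateral effect differed between preparations this is an average of unequal values: -3.21 in contralateral and -1.13 in normal kidneys for Sf3b1, -3.32 and -0.92 for Luc7l2, -2.60 and -1.44 for Hnrnpab, and -2.37 and -1.56 for Hnrnpu. For the Snrpg probe set named above, 1448357_at, it was -2.33 and -2.09, and for Sf3b5 -1.85 and -2.11. The brighter Snrpg probe set, 1448358_s_at, had only 0.15 in contralateral and 0.05 in normal kidneys.

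Probe sets of one gene were called in opposite directions between amplified and total RNA in 8 of the 52 member genes (15.4%, against 8.0% of 2861 genes), namely Ddx5, Ddx6, Hnrnpab, Hnrnpu, Luc7l2, Sf3a2, Sf3b1 and Srsf2. Snrpg is not among these 8. Its probe set 1448357_at had 5.38 and 5.89 in contralateral and 5.99 and 6.02 in normal amplified RNA. In unamplified RNA it had 7.84 and 8.09 in contralateral and 8.03 and 8.17 in normal kidneys. For this probe set the change with preparation was many times the spread between arrays of a group. The adjusted p of the lower probe sets named here ran from 2.92e-05 to 0.0212.

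In newly transcribed against amplified total RNA 32 member probe sets were higher and 17 lower, with a median of 0.18, against 11.9% higher and 16.7% lower of all probe sets (28.6% in all) and a median of -0.01. With equal array medians 17 were higher and 19 lower, so the balance turned with the scaling. The count of 49 was 110 without the normal newly transcribed array (49 higher and 61 lower), 88 without the contralateral one (69 higher and 19 lower) and 31 without normal amplified replicate 2. Higher were Dhx9 1451770_s_at (1.43 ± 0.25), Prpf6 1454789_x_at (1.28 ± 0.36), Hnrnpa1 1436549_a_at (1.24 ± 0.18), Ddx6 1434697_at (1.21 ± 0.27), Ddx17 1437773_x_at (1.16 ± 0.17), Srsf1 1434972_x_at (1.09 ± 0.19) and 1428099_a_at (1.07 ± 0.19), and Hnrnpul2 (1.08 ± 0.17). The Prpf6 value averaged 2.08 in contralateral and 0.49 in normal kidneys, and its call was lost in 6 of 19 alternatives. Lower were Prpf31 of the U4/U6 particle (-1.69 ± 0.29), 2 probe sets of Sf3b2 (-1.54 ± 0.27 and -1.41 ± 0.21), Srsf10 1418527_a_at (-1.33 ± 0.45), Hnrnpab 1453849_s_at (-1.20 ± 0.29), Sf3b5 (-1.20 ± 0.19), Ddx41 (-0.93 ± 0.22) and Ddx54 1460396_at (-0.91 ± 0.16). The Srsf10 call came from 1 array: newly transcribed minus amplified RNA was -2.45 in contralateral kidneys, where the deposited newly transcribed signal was 0.3, and -0.21 in normal kidneys. Without the contralateral newly transcribed array it was -0.19 (limma, adjusted p = 0.62), and the call was lost in 13 of 19 alternatives. Hnrnpab was the 1 member gene with probe sets called in both directions, 1.92% of 52 against 2.13% of 2861 genes on the array.

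Related genes outside the members were counted in the same fits. Other splicing regulators, 118 tested probe sets, were at least 2-fold lower in 46 (39% against 18.5% of all) and higher in 6 (5.08% against 14.4%) on the contralateral newly transcribed array, with a median of -0.72. In amplified RNA 22 of them fell and 6 rose (23.7% called against 10.3% of all), the largest changes being Srrm1 (-2.89 ± 0.36, adjusted p = 0.000573), an SR-related splicing coactivator, and the SR protein kinase gene Srpk2 (-1.93 ± 0.17, adjusted p = 6.6e-05). In total RNA 3 rose (2.54% against 1.91%), Sfpq by 1.02, the cold-inducible Cirbp by 0.86 and Tardbp by 0.66. Other spliceosome proteins, 64 probe sets, were lower in 7 (10.9%, against 18.5% of all) and higher in 5 (7.81%, against 14.4%) on the newly transcribed arrays. In amplified RNA 1 fell (1.56%, against 10.3% of all), which was Slu7 (-0.77). None was called in total RNA by limma (4 at an unadjusted p under 0.05).

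Of the RNA decay genes, 56 probe sets, 17 (30.4%, against 18.5% of all) were at least 2-fold lower and 3 (5.36%, against 14.4%) higher on the contralateral newly transcribed array. In amplified RNA the share called was 12.5%, near the 10.3% of all probe sets: 4 fell, with the deadenylase genes Cnot6 (-1.10), Cnot4 (-0.94) and Cnot6l (-0.83) the largest, and 3 rose. In total RNA 3 rose (5.36% against 1.91%), Zfp36 by 1.05, Zfp36l1 by 0.93 and the exonuclease gene Xrn2 by 0.88. The 3' end processing genes, 32 probe sets, were lower in 9 (28.1%, against 18.5% of all) and higher in 3 (9.38%, against 14.4%) on the newly transcribed arrays. Wdr33 (-0.96) and Papola (-0.69) fell in amplified RNA. The exon junction complex and export genes, 31 probe sets, were lower in 6 (19.4%, near the 18.5% of all) and higher in 2 (6.45%, against 14.4%). In amplified RNA the export adaptor gene Alyref (-1.57 ± 0.15, adjusted p = 0.000111) and Thoc2 (-0.63) fell. The shares called in amplified RNA, 6.25% and 6.45%, were below that of all probe sets. Neither of these lists had a call in total RNA by limma (5 and 1 at an unadjusted p under 0.05).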

How the data were processed

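For 10 one-colour Affymetrix arrays the authors deposited linear intensity values, 1 for each probe set. Their summary algorithm is not given in the sources used here. RNA was column-purified and labelled by a T7 strategy, per the labels' protocols. Values became log2(intensity + 11.8), the offset being the 25th percentile, and were quantile normalized without 64 control probe sets. Tests took the 13575 of 22690 probe sets whose mean exceeded 5.27, the 40th percentile. Fits used limma 3.58.1 in R 4.3.3 (lmFit, eBayes with trend) on all 10 arrays, Benjamini-Hochberg adjustment over all tested probe sets and a threshold of 0.05. Contralateral effects within a preparation and their differences came from 6 group means (4 residual degrees of freedom), the other comparisons from an additive model (6). A ± value is limma's standard error. The fits were tested on simulated data. All 228 member identifiers matched RefSeq, and another 14 probe sets list several symbols and were left out. Named were the 8 largest called changes in each direction per comparison (where fewer than 3 passed, the 3 smallest p), the brightest per prefix, genes listed by name and genes with opposite calls. Other named probe sets belong to these genes or were chosen after their values were seen. Members and lists were chosen with earlier results of these data known. Alternatives covered the offset, normalization, filter, 1 probe set per gene, replicate blocks, subsets of arrays and leaving out each array.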

Additional observations from a re-analysis of the deposited data

Results flagged for a closer look

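For 16 member probe sets the contralateral effect differed between amplified and unamplified total RNA by limma's test of that difference (adjusted p under 0.05). In log2 units, amplified minus total, it was -3.33, -2.44 and -0.96 for 3 probe sets of Ddx6, -2.40 for Luc7l2, -2.08 for Luc7l3, -2.08 for Sf3b1, -1.42 and -0.93 for 2 of Ddx3x, -1.42 for Hnrnpl and -1.30 for Dhx36. It was -1.18 for Hnrnpr, -1.15 for Hnrnpab, -0.91 for Hnrnpk, -0.82 and -0.77 for 2 of Prpf19 and -0.81 for Hnrnpu. For the first 2 of Ddx6 each preparation's own effect passed and the signs were opposite. Luc7l2 also passed in both, but its contralateral amplified signals were 2.9 and 0.4, near 0, so its sign in amplified RNA is not established. It passed the filter through its total RNA values, which its rise there and the difference of effects also use.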

How the results depend on the processing

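With 1 probe set per gene, 91 members entered in place of 194. The calls then numbered 1 in total RNA, 11 in amplified RNA, 3 for the difference of effects, 48 for amplified against total and 27 for newly transcribed against amplified RNA, and 27 were 2-fold apart on the newly transcribed arrays. Total RNA had 1 call with equal array medians and 1 with no filter. Over all preparations a random replicate block gave 12 calls (5 higher, 7 lower), and 2 were called without both newly transcribed arrays. Amplified against total RNA gave 137 calls without both newly transcribed arrays, which is the same fit as with only the arrays of the preparations compared. Newly transcribed against amplified RNA gave 28 with only the arrays of the preparations compared. The cause was not tested where fewer probe sets or arrays do not give it by construction. Leaving out 1 array at a time gave 0 to 7 calls in total RNA, 10 to 31 in amplified RNA, 8 to 19 for the difference, 0 to 2 over all preparations, 75 to 137 for amplified against total and 31 to 110 for newly transcribed against amplified RNA. Whether equal replicate numbers mark the same animal is not known. Correlations of deviations between groups ran from -0.0701 to 0.0998. Between amplified and total RNA they were 0.0998 in contralateral and 0.0971 in normal kidneys. With 2 arrays per group such values cannot decide whether samples were paired. The replicate block gave 5, 32, 15, 0, 82 and 28 calls in the same order of comparisons. Among the single probe sets named, 1325 alternative values kept direction and side of the threshold, 121 lost the call, 6 gained it and 0 reversed. Leaving out member probe sets ending in _s_at or _x_at was chosen after the data were seen. Depth here is signal over an unknown background, so order among dim probe sets, such as Luc7l2 at 3.60, is uncertain.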
